A study of Mus musculus with 144 samples.

Results

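The actin and tubulin genes described here are 10 genes of the liver cytoskeleton, chosen by symbol from the 51912 genes of the deposited count table and all present in it. They are the cytoplasmic actins Actb and Actg1, the transcription factor gene Srf, the actin-binding protein genes Vcl and Flna, the alpha-tubulins Tuba1a, Tuba1b and Tuba4a and the beta-tubulins Tubb2a and Tubb4b. The study followed mRNA and its polyadenylation sites over the day in livers of male C57BL/6J mice, fed ad libitum under light for 12 h and darkness for 12 h each day. QuantSeq libraries, which count the 3′ ends of transcripts next to the poly(A) tail, form 4 series. Of these, 3 are of wild-type mice and hold total RNA, RNA of nuclei and RNA of polysomes (bound to several ribosomes), and the other is total RNA of Bmal1-/- mice, which lack a core gene of the circadian clock. Each series holds 6 libraries at each of the zeitgeber times ZT2, 6, 10, 14, 18 and 22 (hours after lights on), so 36 libraries in a series. The labels name neither the kind of Bmal1 deletion nor the age of the mice, and do not say whether replicate libraries came from separate animals, so the p-values measure the spread between these libraries.

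Actin filaments and microtubules are polymers of actin and of alpha- and beta-tubulin dimers. Filamins such as FLNA cross-link actin filaments, and vinculin (VCL) ties them to adhesion sites. SRF binds a motif called the CArG box in the promoters of actin and actin-binding genes, and its MRTF coactivators are held back by free actin monomers. In mouse liver, SRF activity has been tied to daily signals in the blood. Tubulin mRNAs are known to be broken down during translation when free tubulin is plentiful.

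The libraries held 5316601 to 9831142 gene counts in the wild-type total series, 1662449 to 6620128 in the nuclear, 2578048 to 13068044 in the polysomal and 4379549 to 14281894 in the Bmal1-/- series. Levels are given as CPM, the gene's counts scaled to the library's total of gene counts. The Bmal1 gene, Arntl, was still counted in the libraries labelled Bmal1-/- (11.5 CPM ± 2.98, SD, n = 36) and had 6.73 CPM ± 5.40 in wild-type total RNA. Counts of 3′ ends check a deletion only where it removes the 3′ end, which the labels do not give, so these counts do not check the labels. The clock output gene Dbp ran from 1.14 to 4.77 CPM over the 36 Bmal1-/- libraries. In wild-type total RNA at ZT10 it ran from 64.9 to 137 CPM. The hepatocyte marker Alb had a mean of at least 20680 CPM in each series. A set of 8 libraries stood apart or went against their labels. Wild-type total ZT2 replicate 4 had a median correlation of 0.859 with its group, where 33 others of the series had 0.937 to 0.975. Wild-type total and nuclear ZT14 replicate 4 and polysomal ZT14 replicate 3 had Dbp, a clock output gene, at 3.03, 2.00 and 6.98 CPM, below the other ZT14 libraries of each series (14.9 to 38.6, 8.51 to 32.4 and 39.1 to 104 CPM) and at ZT18, in the same order, 2.24 to 5.77, 2.51 to 5.35 and 0 to 8.35 CPM were counted. In mice labelled male, Xist passed 100 CPM in 1 ZT22 library of each series. These 8 libraries were chosen after seeing the data. Others outside the set also had low median correlations with their group. Among them were nuclear ZT14 replicate 1 (0.878), polysomal ZT18 replicate 1 (0.880) and Bmal1-/- ZT18 replicate 5 (0.893). Polysomal replicate 1 held airway and lung markers (Scgb1a1, Scgb3a2 and Sftpc, while Sftpb was at 0), with a summed level from 57.1 to 929 CPM over its 6 libraries. In the other series that sum was at most 0.301 CPM. Dbp at ZT6 also went with the replicate number. In wild-type total RNA it had 54.3 to 61.3 CPM in replicates 1 to 3 and 13.3 to 23.7 CPM in replicates 4 to 6. In polysomal RNA the order was reversed, with 8.28 to 15.5 CPM in replicates 1 to 3 and 53.0 to 80.3 CPM in replicates 4 to 6. Counts of genes are also given without the 8 libraries where this changes them.

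RefSeq promoter sequences (GRCm38.p6, 250 bases before to 50 after a start) were found for 9 of the 10 genes, all but Actb. They are shown for the 3 genes with a CArG box, since this is the motif that SRF reads, and for the 3 tubulin genes that moved together over the day. The motifs searched were the CArG box, the E-box CACGTG and the D-box TTATGTAA on both strands and TATAAA on the strand of the gene. A CArG box stood in 1.63% of all 32851 promoters, CACGTG in 7.15%, TTATGTAA in 0.938% and TATAAA in 8.32%. Capitals mark these motifs in stretches of 150 bases, written 5′ to 3′ on the strand of the gene. The stretches lie at chr17:46556163-46556312 (minus strand), chr11:120348496-120348645 (minus strand), chr14:20929148-20929297 (plus strand), chr13:34078009-34078158 (minus strand), chr1:75219295-75219444 (minus strand) and chr2:25224703-25224852 (minus strand).
Srf: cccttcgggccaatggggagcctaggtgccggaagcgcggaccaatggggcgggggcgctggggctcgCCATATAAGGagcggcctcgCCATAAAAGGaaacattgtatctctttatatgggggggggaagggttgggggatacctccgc
Actg1: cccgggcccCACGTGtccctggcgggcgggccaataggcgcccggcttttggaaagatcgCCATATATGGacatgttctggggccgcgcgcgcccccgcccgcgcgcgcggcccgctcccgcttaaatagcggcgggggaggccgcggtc
Vcl: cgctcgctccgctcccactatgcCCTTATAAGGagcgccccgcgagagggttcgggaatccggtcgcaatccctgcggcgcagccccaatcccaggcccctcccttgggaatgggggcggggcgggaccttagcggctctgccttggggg
Tubb2a: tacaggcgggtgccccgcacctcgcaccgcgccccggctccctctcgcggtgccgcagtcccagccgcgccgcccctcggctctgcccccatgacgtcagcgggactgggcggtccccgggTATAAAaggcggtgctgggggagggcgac
Tuba4a: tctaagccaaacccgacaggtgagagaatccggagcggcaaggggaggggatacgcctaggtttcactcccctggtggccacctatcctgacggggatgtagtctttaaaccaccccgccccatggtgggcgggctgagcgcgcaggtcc
Tubb4b: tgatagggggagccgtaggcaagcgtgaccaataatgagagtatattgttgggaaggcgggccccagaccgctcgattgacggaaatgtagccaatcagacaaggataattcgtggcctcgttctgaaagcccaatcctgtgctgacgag
The stretch shown ends at base -1 before the start, except for Vcl, where it covers bases -250 to -101. Srf itself carried 2 CArG boxes, from -82 to -73 and from -62 to -53. Actg1 carried 1 from -90 to -81 with a CACGTG from -141 to -136, and Vcl 1 from -227 to -218. The stretches of Srf and Tuba4a lie inside the gene spans of the RefSeq gene table, so the start that the promoter table uses is not the outermost one. The capitals in Tubb2a are TATAAA from -29 to -24. Tubb4b had TATAAA from 19 to 24, after its start and outside the stretch shown, and in Tuba4a no searched motif was found. No CArG box, CACGTG or TTATGTAA was found in the windows of the 5 tubulin genes, and in that of Flna no searched motif was found.

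The first question was which of these genes followed the time of day in wild-type liver. In total RNA, 4 of the 10 genes passed the test for a 24 h rhythm, against 18.9% of the 11964 genes tested (edgeR quasi-likelihood test of a cosine and sine, Benjamini-Hochberg adjusted). They were the tubulins Tubb2a, Tuba4a and Tubb4b, highest at the end of the night, and the actin Actg1, highest in the middle of the night. Without the 8 libraries the count was 6, with Actb (adjusted p = 0.00571) and Tuba1a (adjusted p = 0.0155) added. The fitted peak-to-trough ratio (the fitted highest level over the day divided by the lowest) had a median of 0.323 on the log2 scale over all genes tested.

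Tubb2a, a beta-tubulin isotype, had the largest fitted peak-to-trough ratio of the 10 genes in wild-type total RNA. At ZT2 its 6 libraries of wild-type total RNA had 137 CPM as the lowest, 182 as the median and 226 as the highest. At ZT10 they had 11.4, 26.7 and 43.8 CPM, and at ZT22 they had 151, 189 and 215 CPM. All libraries at ZT10 lay below all libraries at ZT2, ZT6, ZT18 and ZT22. Its fitted peak-to-trough ratio was 6.63 with a peak at ZT22.8 (edgeR adjusted p = 8.28e-07). At ZT14 5 libraries lay between 9.53 and 61.5 CPM and replicate 4, one of the 8, had 159 CPM.

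Tuba4a, an alpha-tubulin, also peaked near the end of the night, with a smaller ratio. Its wild-type libraries had 336 CPM as the lowest, 398 as the median and 546 as the highest at ZT22, and 182, 212 and 254 CPM at ZT10. These 2 times did not overlap. The ratio was 2.02 with a peak at ZT23.0 (edgeR adjusted p = 7.07e-06). Tubb4b, a beta-tubulin also found in cilia, had 27.2, 35.3 and 45.3 CPM at ZT22 and 13.9, 17.1 and 21.2 CPM at ZT10 in the same order, again without overlap, with a ratio of 1.92 and a peak at ZT22.4 (edgeR adjusted p = 6.92e-06). The other alpha-tubulins, Tuba1a (ratio 1.36) and Tuba1b (ratio 1.13), did not pass the test (edgeR adjusted p = 0.262 and 0.853).

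Actg1, cytoplasmic gamma-actin, was counted at a very low level, with 4 to 53 counts in a wild-type total library. Its gene and site counts do not cover the same reads, and reads of near copies may be split in counting. The level counted may thus not be that of the whole gene. Actg1 had 1.26 CPM as the lowest, 2.78 as the median and 5.39 as the highest at ZT18, and 0.548, 0.968 and 2.00 CPM at ZT6, so the 2 times overlapped. The ratio was 2.00 with a peak at ZT18.5 (edgeR adjusted p = 0.0276), and the edgeR adjusted p was 0.192 within replicates 4 to 6 and 0.169 in a fit of all 4 series. Actb, cytoplasmic beta-actin, had time-point means from 1012 CPM at ZT10 to 1273 CPM at ZT22 and a fitted ratio of 1.21 (edgeR adjusted p = 0.345). One library, ZT2 replicate 4, had 297 CPM of Actb where the other 5 had 1024 to 1409. Srf (ratio 1.27), Vcl (1.17) and Flna (1.17) did not pass (edgeR adjusted p = 0.123, 0.334 and 0.740).

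**Figure D1:**
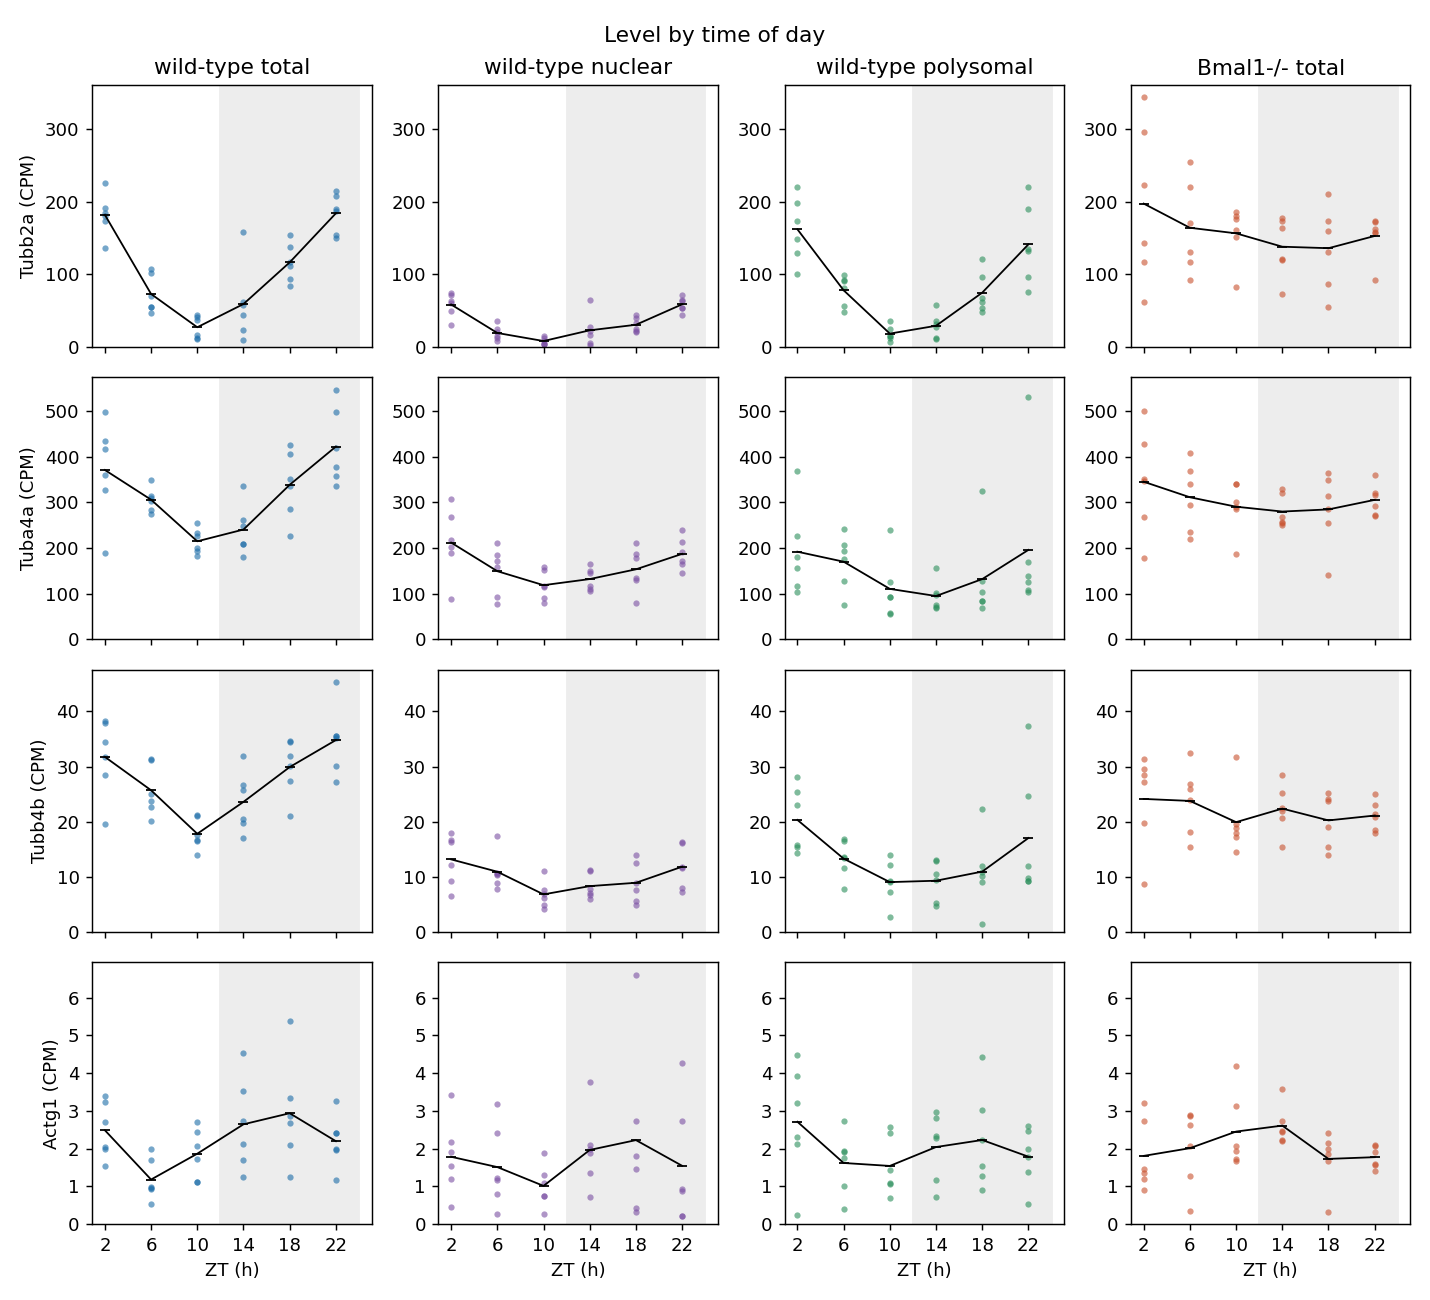
Level in CPM (vertical axis, linear) against zeitgeber time in h (horizontal axis) for Tubb2a, Tuba4a, Tubb4b and Actg1 in the 4 series, with 1 point per library, the black line through the means of 6 libraries and the dark phase shaded. In wild-type total RNA the Tubb2a means run from 27.0 CPM at ZT10 to 184 CPM at ZT22, and in Bmal1-/- from 136 to 198 CPM.

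In nuclear RNA the same 3 tubulins passed the rhythm test, out of 9 genes tested, against 5.99% of 11172 genes. Actg1 had too few nuclear counts to be tested. Tubb2a had 30.7, 62.0 and 74.2 CPM (lowest, median and highest) at ZT2 and 4.14, 6.48 and 14.6 CPM at ZT10, without overlap. Its ratio was 5.78 with a peak at ZT22.6 (edgeR adjusted p = 1.86e-04). Tuba4a had a ratio of 1.75 (edgeR adjusted p = 0.0161) and Tubb4b one of 1.88 (edgeR adjusted p = 0.0295), and their groups at ZT2 and ZT10 overlapped. Without the libraries that stand apart the adjusted p of Tubb4b was 0.0550 and the count was 2. Within replicates 1 to 3 Tuba4a and Tubb4b did not pass (edgeR adjusted p = 0.726 and 0.894). Within replicates 4 to 6 Tubb2a and Tuba4a did not pass (edgeR adjusted p = 0.107 and 0.108).

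In polysomal RNA, 2 of the 10 genes passed, against 7.9% of 10691 genes. Tubb2a had 101, 162 and 221 CPM at ZT2 and 7.34, 14.9 and 35.7 CPM at ZT10, without overlap, with a ratio of 8.14 and a peak at ZT23.6 (edgeR adjusted p = 4.44e-08). Tubb4b had a ratio of 2.16 (edgeR adjusted p = 0.0464). Tuba4a had a ratio of 2.03 that did not pass (edgeR adjusted p = 0.128). The calls of both changed with the libraries and the fit used, while the fitted log2 peak-to-trough stayed between 0.73 and 1.28. Tuba4a passed without polysomal replicate 1 (edgeR adjusted p = 0.00537) and in a fit of all 4 series (edgeR adjusted p = 0.00134). Tubb4b did not pass without polysomal replicate 1 (edgeR adjusted p = 0.0799), within replicates 1 to 3 (0.262), within replicates 4 to 6 (0.129) or without the libraries that stand apart (0.0848). Without the latter the count was 1, Tubb2a.

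Whether the rhythms differed between RNA fractions was tested as an interaction with wild-type total RNA. None of the 10 genes passed, for nuclear RNA (0% of 11864 genes called, with 244 at an unadjusted p under 0.05) or for polysomal RNA (0% of 11556 genes, with 673 unadjusted). The smallest unadjusted p-values among the 10 were 0.102 for Tubb4b in nuclear RNA and 0.206 for Tubb2a in polysomal RNA.

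Of 15 other tubulin genes, 7 had enough counts in wild-type total RNA and 5 of these passed the rhythm test. Tubb2b, a close relative of Tubb2a in sequence, had a ratio of 4.51 and a peak at ZT23.0 (edgeR adjusted p = 9.86e-04), and reads of such near copies may be split in counting. Tuba1c had a ratio of 1.77 and a peak at ZT20.7 (edgeR adjusted p = 5.69e-04). Among 13 tested genes of tubulin folding (the CCT chaperonin and the tubulin cofactors) 4 passed, with Cct5 at a ratio of 1.35 (edgeR adjusted p = 2.08e-04) and Cct3 at 1.43 (edgeR adjusted p = 0.00261). Of 25 genes of actin assembly 2 passed, the formins Diaph2 (ratio 1.66, peak at ZT9.94) and Diaph1 (ratio 1.37, peak at ZT20.7) with edgeR adjusted p = 2.09e-07 and 0.0469. Of 21 genes linked to SRF and MRTF 3 passed, with Junb, an immediate early gene, at a ratio of 3.03 and a peak at ZT5.61 (edgeR adjusted p = 2.53e-06). Of 17 genes of adhesion and cross-linking 3 passed, with Actn4, an actinin, at 1.65 (edgeR adjusted p = 0.00457) and Itgb5 at 1.32 (edgeR adjusted p = 0.0146). Against the 18.9% of all genes, the shares ran from 2 of 25 to 5 of 7, and most of the actin genes did not pass. In nuclear RNA 1 of 3 other tubulins passed (Tubb5, ratio 1.75, edgeR adjusted p = 0.0101) and in polysomal RNA 1 of 4 (Tuba1c, ratio 1.81, edgeR adjusted p = 0.00493). Egr1, an SRF target, passed in both, with ratios of 5.69 (edgeR adjusted p = 0.00783) and 10.8 (edgeR adjusted p = 0.00593).

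The comparison with Bmal1-/- asked whether the rhythms differed in mice lacking the clock gene. In Bmal1-/- total RNA 0 of the 10 genes passed the rhythm test (edgeR, with 1 of 12126 genes called, 0.00825%, and 491 at an unadjusted p under 0.05; DESeq2 also called 0 of the 10). The test of the difference in rhythm from wild type passed for 3 of the 10, against 5.18% of 12082 genes. These were Tubb2a (edgeR adjusted p = 6.09e-05), Tuba4a (edgeR adjusted p = 0.0184) and Tubb4b (edgeR adjusted p = 0.0200), and all 3 passed without the libraries that stand apart. Within replicates 4 to 6, and in a fit of all 4 series, Tubb2a alone of the 10 passed, and within replicates 1 to 3 Tubb4b did not (edgeR adjusted p = 0.166). Actg1 did not pass (edgeR adjusted p = 0.0804).

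In Bmal1-/- mice the time-point means of Tubb2a ran from 136 to 198 CPM, and all lay above the wild-type mean at ZT10, 27.0 CPM. Its 6 libraries at ZT10 had 83.1 CPM as the lowest, 169 as the median and 186 as the highest, all above the highest wild-type ZT10 library. At ZT2 they had 62.0, 183 and 344 CPM and overlapped with wild type. Its fitted ratio over the day was 1.45 and did not pass (edgeR unadjusted p = 0.117). Tuba4a had time-point means from 280 to 345 CPM in Bmal1-/- and from 215 to 422 CPM in wild type, and Tubb4b from 19.9 to 24.1 CPM and from 17.8 to 34.8 CPM in the same order. For both genes the Bmal1-/- means lay inside the wild-type range. Among the other tubulins, Tubb2b (edgeR adjusted p = 0.0400) and Tuba1c (edgeR adjusted p = 0.0417) also passed the test of the difference, 2 of 7 tested.

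Over the mean of the 6 time points, 5 of the 10 genes had another level in Bmal1-/- than in wild type, against 44.1% of 12082 genes (22.4% higher and 21.7% lower). Tubb2a was higher and Vcl, Flna, Tuba1a and Tubb4b were lower. The median log2 change was 0.0051 over all genes. The share of the 10 genes was near that of all genes. Without the libraries that stand apart 6 differed, with Tuba1b lower by a log2 change of -0.23 (edgeR adjusted p = 0.0355).

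Tubb2a had 158 CPM ± 61.4 (SD, n = 36) in Bmal1-/- and 107 CPM ± 67.4 in wild type, a log2 change of 0.75 (SE 0.14, edgeR adjusted p = 1.80e-05). Its mean was higher at 5 of 6 time points, and the ranges of libraries overlapped widely. Replicate 1 ran the other way, with 88.7 CPM ± 23.5 (SD, n = 6) in Bmal1-/- and 115 CPM ± 63.8 in wild type, against 171 CPM ± 57.2 (n = 30) and 105 CPM ± 69.0 in replicates 2 to 6. Vcl, the gene of vinculin, had 11.4 CPM ± 2.69 in Bmal1-/- and 15.0 CPM ± 2.57 in wild type. It was lower at all 6 time points, with a log2 change of -0.49 (SE 0.07, edgeR adjusted p = 9.20e-09). Flna was lower by -0.40 (SE 0.10, edgeR adjusted p = 4.73e-04), Tuba1a by -0.38 (SE 0.11, edgeR adjusted p = 0.00380) and Tubb4b by -0.38 (SE 0.08, edgeR adjusted p = 8.10e-05), each at 5 of 6 time points. Tuba1a did not pass within replicates 4 to 6, nor Tubb4b within replicates 1 to 3 (edgeR adjusted p = 0.302 and 0.0605).

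The other 5 genes did not pass. Actb had 1193 CPM ± 206 in Bmal1-/- and 1104 CPM ± 206 in wild type (log2 change 0.02, SE 0.07, edgeR adjusted p = 0.863). Srf had a log2 change of 0.12 (edgeR adjusted p = 0.204), with 0.38 (edgeR adjusted p = 0.00399) within replicates 4 to 6. Actg1 (-0.15), Tuba1b (-0.22) and Tuba4a (-0.12) had edgeR adjusted p-values of 0.395, 0.127 and 0.211.

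Some markers of other liver cells differed between the same libraries, where 44.1% of all genes passed (22.4% higher and 21.7% lower). Of 8 markers of Kupffer cells, the resident macrophages, 7 were lower in Bmal1-/- with a median log2 change of -0.61, and their summed level ran from 108 to 515 CPM in Bmal1-/- and from 155 to 967 CPM in wild type. Clec4f had 22.6 CPM and 32.9 CPM in that order, and none of the 8 was at 0 in all libraries of a series. Of 8 endothelial markers 4 were lower and 1 higher, and of 5 erythroid markers 4 were lower. Of 8 hepatocyte markers 2 were higher and 1 lower, of 7 tested stellate cell and fibroblast markers 3 were higher and 3 lower, and of 3 tested leukocyte markers 2 were lower. Both tested cholangiocyte markers, Spp1 and Sox9, were higher, with a median log2 change of 1.32. The summed level of the 6 cholangiocyte markers ran from 45.8 to 136 CPM in Bmal1-/- and from 16.3 to 66.6 CPM in wild type. Sox9 made up 60.5 and 22.5 CPM of it on average. Krt19, Krt7, Epcam and Cldn7 were too low to be tested. In that order they had means of 0.656, 0.350, 0.771 and 0.118 CPM in Bmal1-/-. In wild type these means were 0.499, 0.352, 0.602 and 0.114 CPM. The part of these cells in the higher Tubb2a and the lower Vcl, Flna, Tuba1a and Tubb4b was not tested. In bulk RNA, fewer cells of a type and less RNA per cell cannot be told apart.

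Among the related genes, the number lower or higher in Bmal1-/- was mixed, where 22.4% of all genes were higher and 21.7% lower. Of 22 SRF-linked genes 3 were higher and 6 lower (list median -0.15), with Tpm2, a tropomyosin, at -2.11 (SE 0.23, edgeR adjusted p = 1.34e-11) and Zyx, zyxin, at -0.67 (SE 0.08, edgeR adjusted p = 5.73e-10). Tpm1 was higher by 0.36 (edgeR adjusted p = 8.34e-07). Of 25 actin assembly genes 5 were higher and 5 lower, with gelsolin (Gsn) at -0.88 (edgeR adjusted p = 9.63e-08), Tmsb4x at -0.64 (edgeR adjusted p = 7.88e-05) and Diaph1 at 0.28 (edgeR adjusted p = 6.57e-04). Of 17 adhesion genes 2 were higher and 3 lower, with Vasp at -0.36 (edgeR adjusted p = 2.97e-05) and Itgb1 at 0.20 (edgeR adjusted p = 1.94e-04). Of 13 folding genes 6 were higher and 1 lower, with the chaperonin subunits Cct5 and Cct4 both at 0.29 (edgeR adjusted p = 1.35e-07 and 3.03e-06). Of 7 other tubulins Tuba8 was higher (1.15, edgeR adjusted p = 1.74e-04) and Tuba1c lower (-0.31, edgeR adjusted p = 0.00474).

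**Figure D2:**
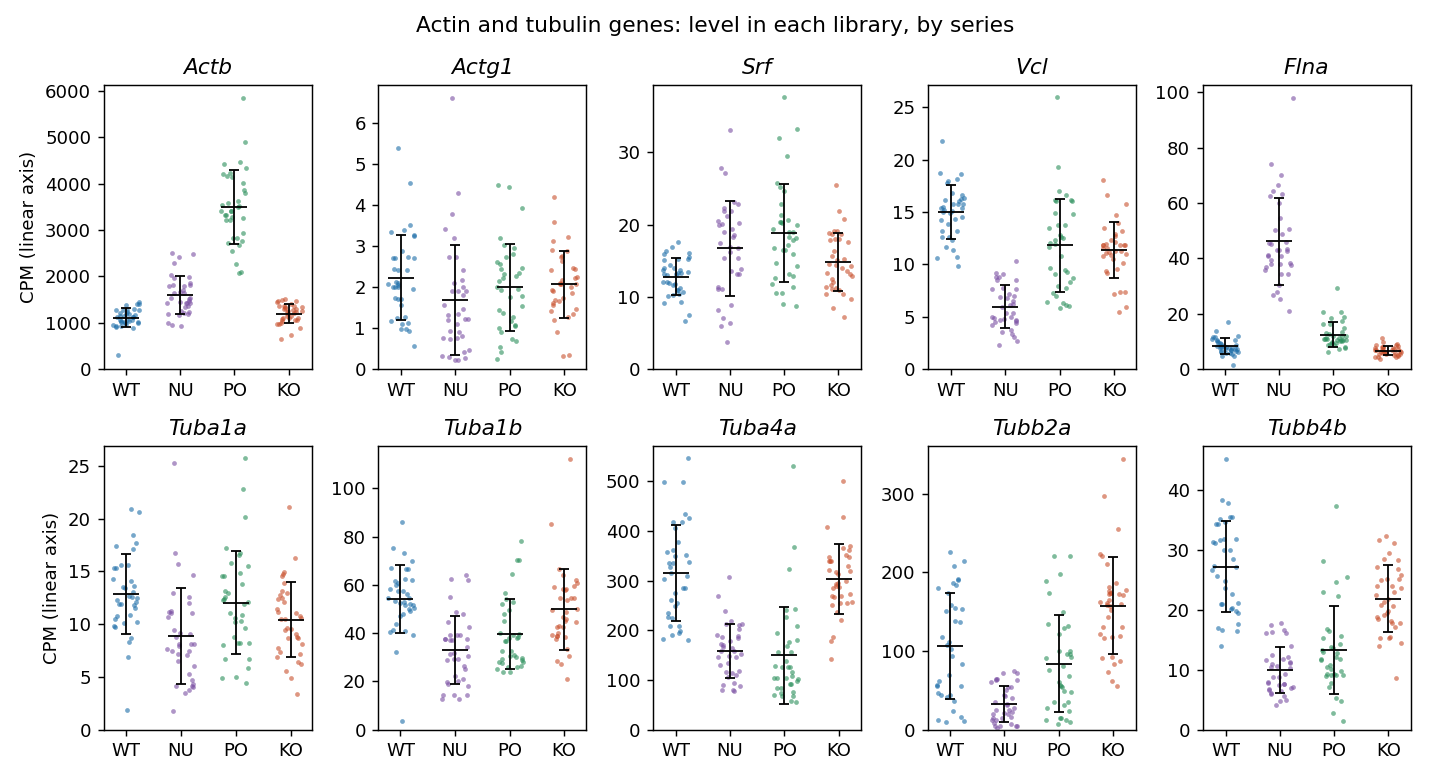
Level in CPM (vertical axis, linear, from 0) of the 10 genes in wild-type total (WT), nuclear (NU), polysomal (PO) and Bmal1-/- total RNA (KO), with 1 point per library and black bars for the mean and SD of 36 libraries. The polysomal Actb libraries (2070 to 5849 CPM) lie above all total RNA libraries (297 to 1438 CPM), and the nuclear Flna libraries (20.8 to 97.8 CPM) above all total RNA libraries (1.32 to 16.8 CPM).

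The nuclear and total RNA of wild-type liver were then compared. This comparison, the polysomal one and the Bmal1-/- one share the 36 wild-type total libraries. All 10 genes differed in level, against 83.8% of 11864 genes (41.6% higher and 42.1% lower), so passing this test set few genes apart. In nuclear RNA 3 were higher, Flna, Actb and Srf, and 7 were lower, among them all 5 tubulins.

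Flna had 46.1 CPM ± 15.7 (SD, n = 36) in nuclear and 8.20 CPM ± 2.84 in total RNA, a log2 change of 2.43 (SE 0.11, edgeR adjusted p = 1.52e-31), without overlap between the libraries. The 90th percentile of the log2 change over all genes was 1.43. Actb had 1590 CPM ± 412 in nuclear and 1104 CPM ± 206 in total RNA (log2 change 0.47, SE 0.08, edgeR adjusted p = 7.88e-07), and the ranges overlapped. Srf had 16.7 CPM ± 6.57 and 12.8 CPM ± 2.59 (log2 change 0.33, SE 0.11, edgeR adjusted p = 0.00420), also with overlap. With genes of at least 1 count kept in the fit, Srf did not pass (edgeR adjusted p = 0.0597).

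The largest nuclear deficit was that of Tubb2a, with 32.9 CPM ± 23.1 in nuclear and 107 CPM ± 67.4 in total RNA (log2 change -1.74, SE 0.17, edgeR adjusted p = 4.78e-14). Tubb4b had 9.97 CPM ± 3.90 and 27.3 CPM ± 7.58 (-1.50, SE 0.09, edgeR adjusted p = 5.54e-24). Vcl had 5.96 CPM ± 2.07 and 15.0 CPM ± 2.57 (-1.41, SE 0.09, edgeR adjusted p = 2.94e-24). All 3 were lower at each of the 6 time points, and beyond the 10th percentile of all genes, -1.39. Tuba4a (-1.04), Tuba1b (-0.76) and Tuba1a (-0.60) were lower at each time point too, with edgeR adjusted p = 5.41e-18, 2.61e-06 and 4.84e-05. Actg1 was lower by -0.45 (SE 0.20, edgeR adjusted p = 0.0347), by -0.07 within replicates 4 to 6 (edgeR adjusted p = 0.788) and by -0.40 in a fit of all 4 series (edgeR adjusted p = 0.0528).

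The related genes of adhesion and SRF were mostly higher in nuclear RNA and those of actin assembly and tubulin folding mostly lower. Of 18 adhesion and cross-linking genes 14 were higher and 2 lower (median log2 change 0.60, against -0.0070 over all genes), led by Plec, plectin, at 2.36 (edgeR adjusted p = 1.54e-34) and Itga5 at 2.10 (edgeR adjusted p = 8.85e-19). Parva (-1.15) and Rdx (-0.77) were lower, with edgeR adjusted p = 4.08e-23 and 4.92e-10. Of 23 SRF-linked genes 16 were higher and 2 lower (median 0.65), led by the smooth muscle genes Acta2 at 2.35 (edgeR adjusted p = 1.32e-15) and Tagln at 2.07 (edgeR adjusted p = 3.79e-17). All 4 tested smooth muscle markers were higher. The summed level of all 6 listed smooth muscle markers ran from 8.12 to 62.5 CPM in nuclear and from 2.34 to 7.67 CPM in total RNA. Of 8 endothelial markers 3 were higher and 5 lower, and of 8 Kupffer cell markers 3 were higher and 4 lower. The part of these cells in the higher Flna was not tested. Of 23 actin assembly genes 6 were higher and 17 lower (median -0.79), with Tmsb4x at -2.54 (edgeR adjusted p = 1.27e-26), Arpc1b at -2.09 (edgeR adjusted p = 1.44e-28), Pfn1 at 1.76 (edgeR adjusted p = 4.70e-09) and Gsn at 1.33 (edgeR adjusted p = 2.51e-11). Of 13 folding genes 2 were higher and 10 lower (median -0.83), with Cct6a at -2.10 (edgeR adjusted p = 5.37e-42). Of 5 other tubulins Tubg1 and Tubb5 were higher by 0.51 and 0.45 and 3 were lower, Tubb2b by the most (-2.51), with edgeR adjusted p = 2.70e-07, 2.08e-06 and 6.11e-11.

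**Figure D3:**
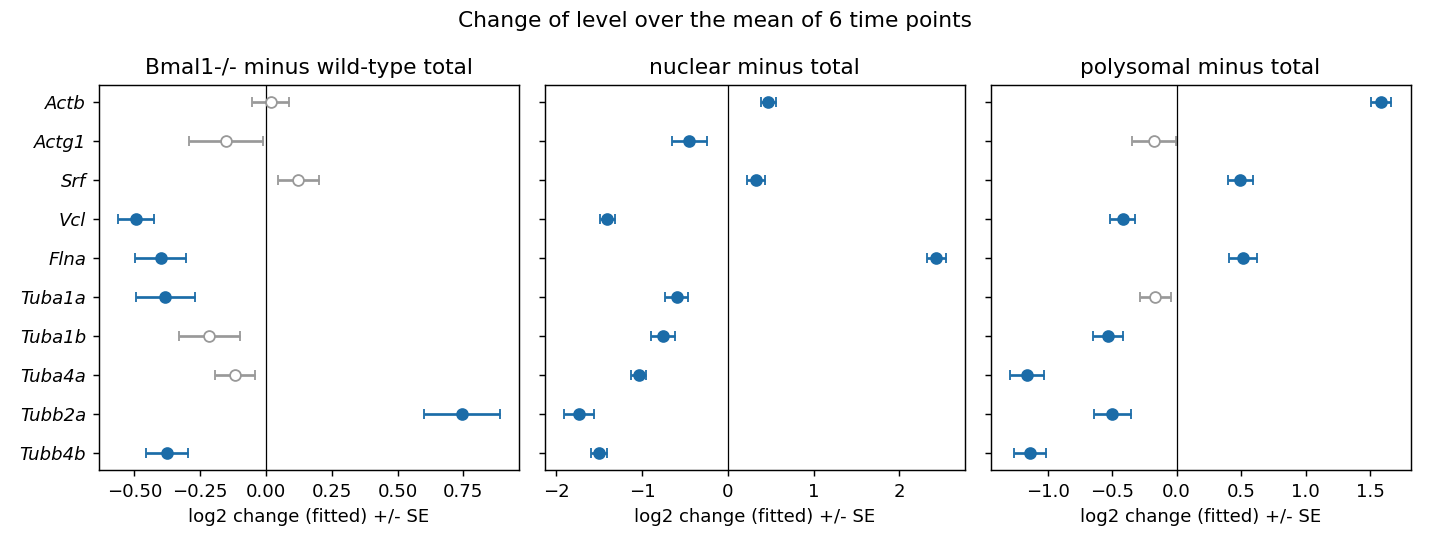
Fitted log2 change in level with its SE (horizontal axis) for the 10 genes (vertical axis) in the 3 comparisons with wild-type total RNA, filled blue points for an adjusted p under 0.05 and open grey points otherwise. The changes run from -0.49 (Vcl) to 0.75 (Tubb2a) in Bmal1-/-, from -1.74 (Tubb2a) to 2.43 (Flna) in nuclear and from -1.16 (Tuba4a) to 1.59 (Actb) in polysomal RNA.

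In polysomal RNA, 8 of the 10 genes differed from total RNA, against 76% of 11556 genes (38.8% higher and 37.2% lower). Actb, Flna and Srf were higher. Tuba4a, Tubb4b, Tuba1b, Tubb2a and Vcl were lower, and Actg1 and Tuba1a did not pass. Without the libraries that stand apart 9 differed, with Tuba1a lower by -0.24 (edgeR adjusted p = 0.0377). Of 5 erythroid markers 4 were higher in polysomal RNA, with a median log2 change of 1.76. Their summed level ran from 2157 to 20820 CPM in polysomal and from 546 to 13134 CPM in total RNA, with none at 0. Of 8 hepatocyte markers 1 was higher and 4 lower, of 8 endothelial markers 1 and 5, and of 8 Kupffer cell markers 3 and 4. Of 7 tested stellate cell and fibroblast markers 0 were higher and 5 lower, and both tested smooth muscle markers were higher. Of 3 tested leukocyte and 2 tested cholangiocyte markers 1 each was lower. The part of all these cells in the changes of the 10 genes was not tested.

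Actb had 3490 CPM ± 796 (SD, n = 36) in polysomal and 1104 CPM ± 206 in total RNA, a log2 change of 1.59 (SE 0.08, edgeR adjusted p = 1.22e-29). The lowest polysomal library, 2070 CPM, was above the highest total RNA library, 1438 CPM. By time the polysomal means were 4582 CPM at ZT2, 3743 at ZT6, 3079 at ZT10, 3194 at ZT14, 2648 at ZT18 and 3693 at ZT22. The fitted peak-to-trough ratio was 1.36 and did not pass the rhythm test (edgeR adjusted p = 0.127, and 0.0473 in a fit of all 4 series). Flna had 12.4 CPM ± 4.66 and 8.20 CPM ± 2.84 (log2 change 0.52, SE 0.11, edgeR adjusted p = 3.12e-05), and Srf 18.8 CPM ± 6.80 and 12.8 CPM ± 2.59 (0.50, SE 0.10, edgeR adjusted p = 4.30e-06). Both overlapped between fractions and were higher at each of the 6 time points. Within replicates 4 to 6 Flna did not pass (edgeR adjusted p = 0.0608), nor did Srf within replicates 1 to 3 (edgeR adjusted p = 0.342). By Dbp at ZT6, such splits of polysomal and total RNA by replicate number may set unlike libraries against each other.

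Tuba4a had 149 CPM ± 97.6 in polysomal and 315 CPM ± 96.7 in total RNA (log2 change -1.16, SE 0.13, edgeR adjusted p = 4.03e-12). Tubb4b had 13.3 CPM ± 7.35 and 27.3 CPM ± 7.58 (-1.14, SE 0.12, edgeR adjusted p = 4.10e-13). Tuba1b (-0.53, edgeR adjusted p = 4.29e-05), Tubb2a (-0.50, edgeR adjusted p = 0.00166) and Vcl (-0.42, edgeR adjusted p = 7.42e-05) were lower by less. Tubb2a did not pass within replicates 4 to 6 (-0.24, edgeR adjusted p = 0.319).

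Polysomal replicate 1, the set with airway markers, held more of several tubulins than replicates 2 to 6. Tuba4a had 310 CPM ± 131 (SD, n = 6) in replicate 1 and 117 CPM ± 45.9 (n = 30) in the others. Tubb4b had 21.1 CPM ± 9.67 and 11.8 CPM ± 5.84, Tuba1a 16.8 CPM ± 5.92 and 11.1 CPM ± 4.13, and Flna 16.2 CPM ± 4.61 and 11.6 CPM ± 4.35. Actb had 3736 CPM ± 876 and 3441 CPM ± 786. The part of the airway cells in these levels was not tested. Without polysomal replicate 1, Tuba1a passed with a log2 change of -0.26 (edgeR adjusted p = 0.0457).

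**Figure D4:**
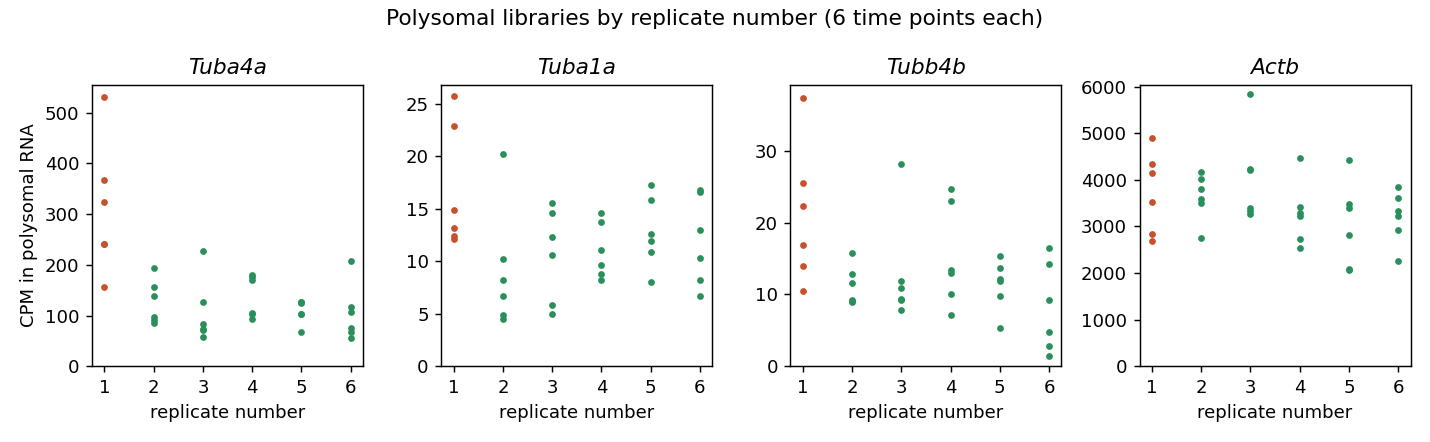
Level in CPM (vertical axis, linear, from 0) of Tuba4a, Tuba1a, Tubb4b and Actb in the polysomal libraries by replicate number (horizontal axis), 6 time points each, with replicate 1 in orange. Tuba4a runs from 155 to 531 CPM in replicate 1 and from 55.3 to 226 CPM in replicates 2 to 6.

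The related genes split within their groups. Of 25 actin assembly genes 14 were higher and 8 lower in polysomal RNA (median log2 change 0.27, against 0.022 over all genes), with Pfn1, profilin, at 4.09 (SE 0.30, edgeR adjusted p = 3.77e-19) and Arpc4 at 2.05 (edgeR adjusted p = 7.22e-33), but Arpc1b at -1.31 (edgeR adjusted p = 2.13e-16) and Tmsb4x at -1.09 (edgeR adjusted p = 2.24e-11). Of 17 adhesion genes 4 were higher and 12 lower (median -0.49), with the spectrins Sptan1 at -2.27 (edgeR adjusted p = 6.86e-29) and Sptbn1 at -2.21 (edgeR adjusted p = 1.39e-34), and Vasp at 0.91 (edgeR adjusted p = 1.40e-11). Of 22 SRF-linked genes 10 were higher and 9 lower, among them Tagln2 at 1.27 (edgeR adjusted p = 9.06e-21) and Myh9, a non-muscle myosin, at -2.71 (edgeR adjusted p = 1.01e-31). Of 13 folding genes 4 were higher and 6 lower, from Tbcc at 1.15 (edgeR adjusted p = 6.58e-18) to Tbce at -1.49 (edgeR adjusted p = 2.46e-16). Of 5 other tubulins Tubg1, the gamma-tubulin of microtubule nucleation, was higher (0.61, edgeR adjusted p = 5.51e-09), and Tubb2b (-1.66) and Tuba1c (-0.95) were lower (edgeR adjusted p = 2.34e-08 and 2.44e-16).

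The site counts give the listed polyadenylation sites at which reads of these genes were counted. Whether each listed site is a true transcript end was not tested. Sites of the authors' filtered list could be given to 9 of the 10 genes. None was given to Tuba1b, but 296 filtered sites that lay in several genes were left out. Positions are those of the authors' lists (mm10). For Actb the list held 3 sites, all on the minus strand of chr5 within the gene (142903115 to 142907976 in RefSeq). In order from the 3′ end of the gene they are chr5:142903116-142903393, chr5:142903730-142903944 and chr5:142904080-142904237.

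In polysomal RNA the counts of Actb shifted from the most 3′ site to the middle one. The most 3′ site held 53.8% ± 2.97 (SD, n = 36) of the Actb site counts in wild-type total RNA and 26.6% ± 3.13 in polysomal RNA. The libraries ran from 46.3% to 60.1% and from 19.7% to 34.9%, without overlap. The middle site held 43.6% ± 3.09 and 68.8% ± 4.04, and the most 5′ site 2.62% ± 0.924 and 4.61% ± 1.67. The usage test gave a log2 change of -1.02 (SE 0.03, edgeR adjusted p = 2.21e-37) at the most 3′ site and 0.66 (SE 0.02, edgeR adjusted p = 8.61e-36) at the middle one. In CPM the most 3′ site had 923 ± 226 in polysomal and 591 ± 105 in total RNA, and the middle site 2409 ± 616 and 481 ± 107, so the higher polysomal Actb level lay mostly at the middle site. Replicate 1 of the polysomal series had 26.6% at the most 3′ site, as did the mean of replicates 2 to 6.

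Site usage over the day was not tested. At the most 3′ site of Actb the time-point means ran from 51.8% to 56.2% in wild-type total and from 24.97% to 28.3% in polysomal RNA. Nuclear RNA had 56.7% ± 6.73 there, a log2 usage change of 0.08 (SE 0.03, edgeR adjusted p = 0.0306) that did not pass within replicates 1 to 3 (edgeR adjusted p = 0.477). Nuclear replicate 1 had 46.3% and replicates 2 to 6 had 58.8%. Bmal1-/- had 52.9% ± 3.03, a change of -0.02 (SE 0.02, edgeR adjusted p = 0.550).

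**Figure D5:**
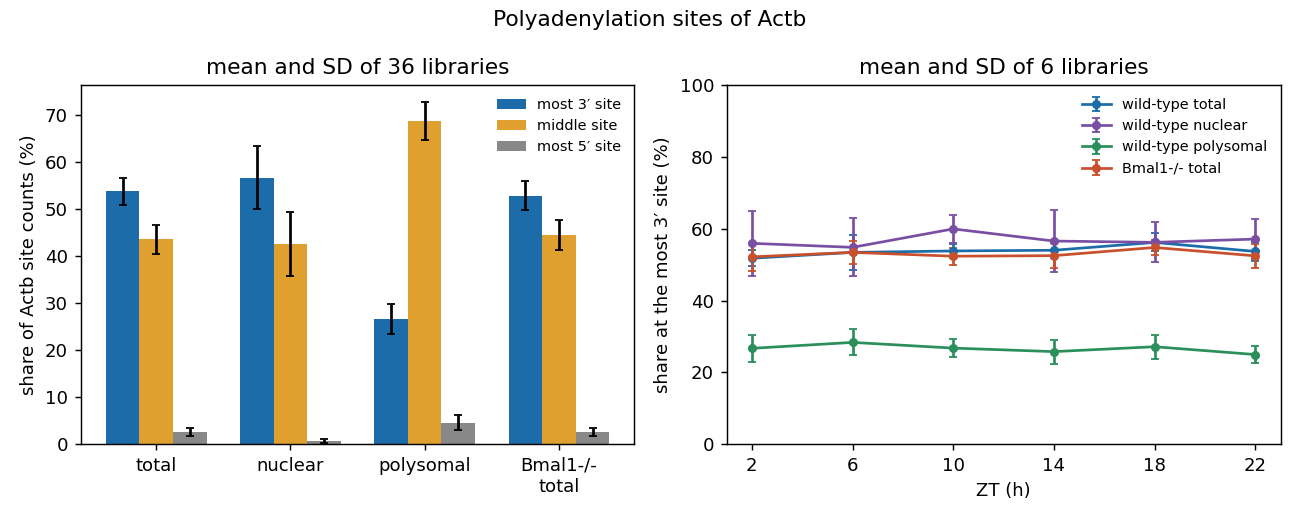
Left, share of Actb site counts in percent (vertical axis, from 0) at its 3 sites in the 4 series, bars for the mean and SD of 36 libraries. Right, share at the most 3′ site against zeitgeber time in h, points and error bars for the mean and SD of 6 libraries, where the polysomal means lie between 24.97% and 28.3% and the wild-type total means between 51.8% and 56.2%.

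Of the member sites in the usage test, 6 of 10 differed between polysomal and total RNA, against 70.5% of 12301 sites, and 6 of 10 between nuclear and total RNA, against 78.9% of 11628 sites. For the Bmal1-/- comparison 0 of 8 passed, against 8.72% of 13159 sites (edgeR, where 2726 of all sites and 0 of the 8 had an unadjusted p under 0.05). In the filtered list Vcl had 2 neighbouring sites on the plus strand of chr14, and shares are of these 2. The outer one, chr14:21033667-21033681, held 5.30% ± 3.19 in total, 36.7% ± 23.4 in nuclear and 16.6% ± 10.5 in polysomal RNA, with log2 usage changes of 2.66 (SE 0.23, edgeR adjusted p = 3.94e-16) and 1.63 (SE 0.23, edgeR adjusted p = 6.03e-09). These shares rest on few reads, with a mean of 5.22 nuclear counts per library at that site. A site outside the filtered list, chr14:20940053-20940064 near the 5′ end of the gene, had a mean of 8.69 nuclear counts and 2.06 wild-type total counts per library and is not in the shares. The inner one, chr14:21033529-21033651, changed by -0.61 and -0.20 (edgeR adjusted p = 7.88e-11 and 1.94e-05).

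Flna had 88.9% ± 6.68 of its site counts at chrX:74223460-74223550 in total and 94.4% ± 3.42 in nuclear RNA (log2 usage change 0.10, SE 0.02, edgeR adjusted p = 0.0130). This call was lost within replicates 1 to 3 and within replicates 4 to 6 (edgeR adjusted p = 0.203 and 0.0616). At chrX:74223582-74223598 the change was -0.97 (SE 0.21, edgeR adjusted p = 5.00e-05). Tuba1a had 2 sites, of which the most 3′, chr15:98949866-98949909, held 35.7% ± 10.9 in total and 43.0% ± 14.04 in polysomal RNA (0.28, SE 0.10, edgeR adjusted p = 0.0145), while chr15:98949973-98950088 changed by -0.19 (edgeR adjusted p = 0.0170). Those ranges overlapped. The most 3′ site did not pass within replicates 1 to 3 (edgeR adjusted p = 0.0780), and within replicates 4 to 6 neither Tuba1a site passed (edgeR adjusted p = 0.147 and 0.189). In Tubb4b the minor site chr2:25222380-25222429 changed by -0.82 in nuclear RNA (SE 0.31, edgeR adjusted p = 0.0133), at a mean of 1.58 counts per library there, and not within replicates 1 to 3 (edgeR adjusted p = 0.153). The other tested sites, chr2:25222157-25222321 of Tubb4b in both fractions, both Flna sites in polysomal RNA, both Tuba1a sites and the middle Actb site in nuclear RNA and the minor Tubb4b site in polysomal RNA, did not pass.

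Tuba4a, Tubb2a and Srf had almost all of their filtered site counts at 1 site each. Tuba4a had 99.1% ± 0.252 of its total RNA site counts at chr1:75215547-75215837 and the rest at chr1:75214996-75215042, under the 5% minimum of the usage test. Tubb2a had 1 site, chr13:34074272-34074487, and Srf 1 in the filtered list, chr17:46546885-46546976, so the daily range of Tubb2a was that of counts at a single site. Actg1 had chr11:120345685-120345696 and chr11:120345772-120345803, with means of 5.72 and 7.14 counts per wild-type total library, too few for the usage test. Same-strand site counts made up 99.5% of the Tuba4a gene counts and 99.6% of those of Tubb2a in wild-type total RNA, but 77.0% for Flna. For Actg1 they came to 75% in wild-type total, 58.2% in nuclear and 137% in polysomal RNA, so its gene and site counts do not cover the same reads. In the RefSeq table Tuba4a, Vcl, Tubb4b, Actb and Tuba1b lie beside or across other genes, and whether gene counting used strand is not given in the sources used here.

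By mean level, the order of the series differed between genes. For Actb it was polysomal, nuclear, Bmal1-/- and wild-type total, and the last 2 did not differ beyond their spread. For Flna it was nuclear, polysomal, wild-type total and Bmal1-/-, and for Srf polysomal, nuclear, Bmal1-/- and wild-type total. Tubb2a was highest in Bmal1-/-, then in wild-type total, polysomal and nuclear RNA. Tuba4a had the order wild-type total, Bmal1-/-, nuclear and polysomal. The first 2 (315 and 303 CPM) and the last 2 (159 and 149 CPM) lay within their SD of each other. Without replicate 1, which held airway markers in polysomal RNA, the last 2 had 164 CPM ± 55.1 and 117 CPM ± 45.9 (SD, n = 30). Tubb4b, Tuba1b and Tuba1a were highest in wild-type total and lowest in nuclear RNA, except that Tubb4b and Tuba1b had Bmal1-/- in the second place and Tuba1a polysomal RNA. Vcl had wild-type total, polysomal, Bmal1-/- and nuclear in that order, the middle 2 (11.8 and 11.4 CPM) within their SD. Actg1 had means from 1.68 CPM in nuclear to 2.22 CPM in wild-type total RNA, all within their SD.

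The genes most like each of the 10 were found by Pearson's r over the 24 means of series and time on a log2 scale, among 11849 genes. The points are 6 time points of each of 4 series, and those of a series share its RNA fraction and genotype. For Tubb2a they were Ppp1r3c, a regulator of glycogen synthesis, and Insig2, a regulator of sterol synthesis (both r = 0.94). For Tuba4a they were Psmd4, a proteasome subunit (r = 0.95), and Ube2u (r = 0.95), and for Tubb4b Fabp4 (r = 0.94) and Naa25 (r = 0.92). Actg1 was most like Chordc1 (r = 0.80) and Hsph1, a heat shock protein gene (r = 0.75). Actb was most like Srsf9, a splicing factor gene (r = 0.98), and Ggcx (r = 0.97). Flna was most like Eng, the gene of endoglin of endothelial cells, and Ctsa (both r = 0.98), Vcl like Rcbtb2 (r = 0.96) and Samd9l (r = 0.93), and Srf like Hnrnpll (r = 0.84) and Apoa1bp (r = 0.83). Tuba1a was most like Tyrobp, a gene of myeloid cells (r = 0.84), and Gm6444 (r = 0.82), and Tuba1b like Smc4, a condensin subunit (r = 0.91), and Rdx, radixin (r = 0.89).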

How the data were processed

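The authors deposited raw counts per gene and raw counts per polyadenylation site for each library. Per the submitters' processing notes STAR 2.4.2a, edgeR and HOMER were used and mm10 and GRCm38.p5 named. How reads were counted and sites filtered is not given in the sources used here. Groups come from the sample titles, and 0 columns lacked a sample. None of 360 pairs of libraries within a group was a copy.

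The deposited counts were tested by edgeR 4.0.16 under R 4.3.3 (robust quasi-likelihood, TMM), keeping genes whose mean count was 10 or more, with Benjamini-Hochberg adjustment over all genes tested and a threshold of 0.05. Levels were compared over the mean of 6 time-point means, and rhythm as a cosine and sine of 24 h. Site usage took the log of the gene's site counts plus 0.5 as offset, for sites with at least 5% of a gene with a mean of at least 50 counts. Sites were given to genes on the same strand by the RefSeq GRCm38.p6 table, up to 1000 bp past the gene end. Sites lying in several genes were given to none.

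Data were simulated for wild-type and Bmal1-/- total RNA only, with the same spread setting for every gene and no libraries standing apart. On these the level test recovered all 100 genes changed by 1.5-fold. The rhythm test recovered 38 of 100 genes at a ratio of 1.5 and 95 of 100 at 2, and the test of the difference in rhythm 10 and 60 of 100. In the same order, 14, 7 and 4 unchanged genes were called. Where the real spread is wider, recovery may be lower. DESeq2 1.42.0 was an alternative. Named are the 10 genes, the 2 largest rises and falls (or the 2 smallest p) past the threshold in each related list, and the 2 most alike genes, except that 1 gene the rule names is not reported here. The genes and lists were chosen with earlier results of these data known.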

Additional observations from a re-analysis of the deposited data

Results flagged for a closer look

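In 22 of 240 groups of 6 libraries, 1 library lay far from the other 5 (Dixon's test at 95%), where chance flags about 5%. For Actb these were 297 CPM in wild-type total ZT2 replicate 4 (the others 1024 to 1409), 2091 CPM in polysomal ZT14 replicate 5 (3222 to 3590) and 1517 CPM in Bmal1-/- ZT10 replicate 2 (971 to 1088). Actg1 had 0.321 CPM in Bmal1-/- ZT18 replicate 5 (1.67 to 2.41). Srf had 5.98 CPM in nuclear ZT18 replicate 3 (16.2 to 21.9) and 37.7 CPM in polysomal ZT2 replicate 6 (10.5 to 19.0). Vcl had 26.0 CPM in polysomal ZT10 replicate 3 (7.25 to 10.8) and 16.6 CPM in Bmal1-/- ZT22 replicate 6 (9.32 to 11.8). Flna had 97.8 CPM in nuclear ZT22 replicate 5 (34.2 to 43.3), 16.3 CPM in polysomal ZT14 replicate 1 (8.09 to 10.9) and 20.4 CPM in polysomal ZT22 replicate 1 (9.95 to 11.1).

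Among the tubulins, Tuba1a had 25.7 CPM in polysomal ZT22 replicate 1 (the others 4.47 to 12.3). Tuba1b had 70.3 CPM in polysomal ZT10 replicate 5 (23.99 to 38.2) and 85.0 CPM in Bmal1-/- ZT6 replicate 5 (42.7 to 53.6). Tuba4a had 324 CPM in polysomal ZT18 replicate 1 (68.3 to 127), 531 CPM in polysomal ZT22 replicate 1 (103 to 169) and 187 CPM in Bmal1-/- ZT10 replicate 1 (286 to 340). Tubb2a had 159 CPM in wild-type total ZT14 replicate 4 (9.53 to 61.5), 83.1 CPM in Bmal1-/- ZT10 replicate 1 (152 to 186) and 92.3 CPM in Bmal1-/- ZT22 replicate 1 (157 to 174). Tubb4b had 17.4 CPM in nuclear ZT6 replicate 3 (7.70 to 10.6) and 31.7 CPM in Bmal1-/- ZT10 replicate 2 (14.4 to 19.5). Wild-type ZT2 and ZT14 replicate 4, nuclear ZT22 replicate 5, Bmal1-/- ZT22 replicate 6 and polysomal ZT22 replicate 1 are among the 8 libraries that stand apart.

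Rhythms in Bmal1-/- were unlike those in wild type, by the edgeR test of the difference itself, for Tubb2a (adjusted p = 6.09e-05), Tuba4a (adjusted p = 0.0184) and Tubb4b (adjusted p = 0.0200).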

How the results depend on the processing

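Counts of called genes or sites under an alternative stayed within 1.5 times of the reported one in 93 cases and moved in 10. The number of rhythmic genes in nuclear RNA was 1 in either set of 3 replicates (numbers 1 to 3, and 4 to 6), in place of 3. The gene called was Tubb2a in replicates 1 to 3 and Tubb4b in replicates 4 to 6. In polysomal RNA the number was 1 in either such set, in place of 2. It was also 1 without the libraries that stand apart, an alternative chosen after seeing the data. It was 4 with the replicate number as a block and 4 in a fit of all 4 series, where Actb (edgeR adjusted p = 0.0266 and 0.0473) and Tuba4a (edgeR adjusted p = 0.00107 and 0.00134) were added. The number whose rhythm differed in Bmal1-/- was 1 within replicates 4 to 6 and 1 in a fit of all 4 series, in place of 3. The number of nuclear site usage calls was 3 within replicates 1 to 3, in place of 6. The replicate block moved no other count by over 1.5 times. Nothing in the labels says what a replicate number shares. By Dbp at ZT6, replicates 1 to 3 of polysomal RNA were unlike those of total RNA. Splits of the polysomal comparison by number may thus set unlike libraries against each other. Deviations of same-numbered libraries from their group means correlated over 0.1 in 35 of 36 pairs of nuclear and total RNA (mean 0.41, 31 of 36 best with their own number), in 1 of 36 of polysomal and in 21 of 36 of Bmal1-/- libraries, so not in every pair. For polysomal libraries the mean was -0.15 with the same number and 0.036 with other numbers. Whether polysomal libraries pair with total RNA libraries of another number was not tested. With number and time point as a pair block, all 10 nuclear level calls and the 0 calls of a difference in nuclear rhythm held. For single genes and sites, 964 values kept their side of the threshold, 31 lost the call and 16 gained it, and none reversed. The cause of these changes was not tested. DESeq2 size factors for site usage were not run, since the offset replaces the library size. Low counts limit Actg1 and the minor sites of Vcl and Tubb4b.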
